A study of Mus musculus with 9 samples.

Results

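The p53 pathway was followed here through 10 genes, the p53 gene with its inhibitors Mdm2 and Mdm4 and 7 direct p53 targets, Ccng1, Zmat3, Phlda3, Trp53inp1, Sesn1, Sesn2 and Aen. All probe sets were taken whose platform annotation names exactly 1 of these symbols. Such probe sets were found for 9 of the 10 genes, out of 18193 genes named on the array, and the p53 gene itself is not analysed here. The 9 genes had 24 probe sets, of which 21 had a mean level above the 40th percentile of the array (4.03 on the log2 scale) and were tested.

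The RNA was that of LSK cells (Lin-Sca1+cKit+), a sort of marrow enriched for stem cells and multipotent progenitors, taken from C57Bl/6 mice. All recipients were lethally irradiated (10 Gy), received syngeneic marrow cells and were sampled 8 weeks after transplantation. The control group comprised mice given wild type LSK cells. The other mice received cells transduced with a retroviral vector for dnMPL, and their LSK cells were split by GFP into a negative and a positive group. Marrow of 2 to 5 mice was pooled for every array, with 3 arrays per group. The labels do not say whether the control cells carried a vector, whether equally numbered GFP-negative and GFP-positive pools share mice, or how donor cells were told from surviving host cells. Since no separate culture or litter is named for the pools, p-values measure the spread between these samples.

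p53 is a transcription factor that cells stabilise after DNA damage and other stress. Mdm2 and Mdm4 hold it in check, and because Mdm2 is itself a p53 target the pathway contains a feedback loop. In hematopoietic stem cells, p53 is known for its part in quiescence and in the response to irradiation. The targets examined stop growth, limit oxidative stress, promote death or feed back on p53, and their transcripts are commonly read as a sign of p53 activity.

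Direct targets are genes near which p53 binds DNA, so the sequence at their transcript starts is shown first. The RefSeq promoter table (GRCm38.p6) held 10 windows for 7 of the 9 genes, each running from 250 bases before to 50 bases after a transcript start. Zmat3 and Trp53inp1 had no entry. The p53 consensus decamer, a 10-base pattern that reads the same on both strands and of which p53 binds 2 copies, was searched by its exact letters. It occurred in 5 of the 10 windows, belonging to 4 genes, against 8.36% of all 32851 windows. A pair of exact copies 0 to 13 bases apart occurred in 0 of the 10 windows and in 0.0731% of all windows. The 2 Aen windows overlap and share 1 match. A match describes letters and does not show that p53 binds there. The well known p53 sites of Mdm2, for example, lie in an intron beyond this window.
The matched stretches are given 5′ to 3′ on the strand of the gene, with the decamer in capitals. For Ccng1 the capitals mark 20 bases, made of the decamer and an adjacent copy that departs from the consensus at 1 position. Windows with 20 such bases and at most 1 mismatch made up 0.0883% of all windows.
Mdm2 (chr10:117710915-117710964, minus strand): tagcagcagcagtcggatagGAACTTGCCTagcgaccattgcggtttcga
Ccng1 (chr11:40755442-40755501, minus strand): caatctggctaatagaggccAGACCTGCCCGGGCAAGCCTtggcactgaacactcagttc
Sesn1 (chr10:41887246-41887295, plus strand): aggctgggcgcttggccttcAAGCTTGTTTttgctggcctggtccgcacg
Aen (chr7:78895927-78895956, plus strand): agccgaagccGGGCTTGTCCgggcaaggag
The exact decamer began 186, 185 and 173 bases before the start that defines the matched window of Mdm2, Ccng1 and Sesn1. In Aen it began 121 bases before the more downstream of the 2 annotated starts and lay after the other start. The windows of Phlda3 and Sesn2, both windows of Mdm4 and the other Sesn1 window held no exact decamer.

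The arrays did not contribute equally. Control 3 and GFP-positive 2 stood apart: limma gave them array weights of 0.38 and 0.40, whereas those of the remaining 7 arrays lay between 0.927 and 2.03. On the same 2 arrays the gap between the 3′ and the 5′ control probe sets of Gapdh, a measure of transcript integrity, was 3.87 and 3.22, against 2.47 to 2.89 elsewhere. On control 3 the 5′ value was the lowest of all arrays, at 8.69. On GFP-positive 2 the 5′ value was 9.73, close to the 9.71 of GFP-negative 3, and the 3′ value was the highest, at 12.955. Kit, which defines the gate, read 8.73, 8.67 and 8.08 on the controls, 8.02, 8.22 and 7.92 on GFP-negative and 8.18, 6.38 and 8.18 on GFP-positive arrays, so that its low value was on GFP-positive 2. Ly6a, which encodes Sca1, is not analysed here. Of 6 other blood cell and stem cell surface genes listed, Ptprc, Cd34, Flt3 and Cd48 were above the filter level on every array, and Slamf1 had means of 4.12, 3.51 and 4.35, around that level. On the GFP-positive arrays Slamf1 read 3.26, 6.54 and 3.25, with the high value on GFP-positive 2. Cd48 had its lowest value, 8.12, on that array. The sixth, Procr, had means of 8.04, 5.64 and 6.53 in control, GFP-negative and GFP-positive cells. The mean level of 10 granulocyte markers ran from 6.78 to 9.40 on the control arrays, from 9.55 to 10.9 on GFP-negative and from 10.3 to 11.4 on GFP-positive arrays, and that of 8 erythroid markers from 5.90 to 6.10, from 7.23 to 7.38 and from 7.50 to 7.70. Of the granulocyte list, Mpo already read 11.5 to 12.3 on the controls. Of the erythroid list, Car2 and Epor had lower means in both dnMPL groups than in controls. Mast cell and basophil markers averaged 4.54 to 4.64 on control, 4.73 to 6.37 on GFP-negative and 5.15 to 6.79 on GFP-positive arrays. Megakaryocyte markers averaged 5.23 to 6.07, 5.13 to 5.81 and 4.52 to 5.17, in the same order. Monocyte and macrophage markers averaged 4.59 to 4.98, 5.08 to 6.47 and 4.94 to 6.31, and B cell markers 4.81 to 6.46, 5.74 to 6.49 and 6.46 to 6.89. T and NK cell markers averaged 4.44 to 4.62, 4.74 to 4.93 and 4.64 to 5.02. Endothelial and stromal markers averaged 4.07 to 4.35, 4.25 to 4.97 and 4.26 to 5.23. The part of the mix of cells and of transcript integrity in the values below was not tested. In sorted pools, a change in the mix of cells cannot be told apart from a change in transcript per cell.

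No member passed the test in any comparison. Across 27022 probe sets, 0 had a limma adjusted p under 0.05 in GFP-positive against control (0% called), in GFP-negative against control (0%) or in GFP-positive against GFP-negative (0%). At an unadjusted p under 0.05, 0 of 21 member probe sets qualified in GFP-positive against control (5.88% of all probe sets did), 0 of 21 in GFP-negative against control (5.31%) and 1 of 21 in GFP-positive against GFP-negative (2.71%). The 1 probe set was the dimmer of the 2 for Sesn2. Groups of 3 did not overlap in 1, 2 and 2 of the 21 member probe sets in the 3 comparisons, where 8.4%, 10.8% and 6.47% of all probe sets had groups that did not overlap. The members' counts were therefore near the background share of the array. In the 24 comparisons of the 8 members tested by their brightest probe set, limma adjusted p-values lay between 0.919 and 1.00, and every 95% interval included 0. With 3 arrays in each group, the smallest two-sided p of an exact permutation test is 0.1.

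**Figure D1:**
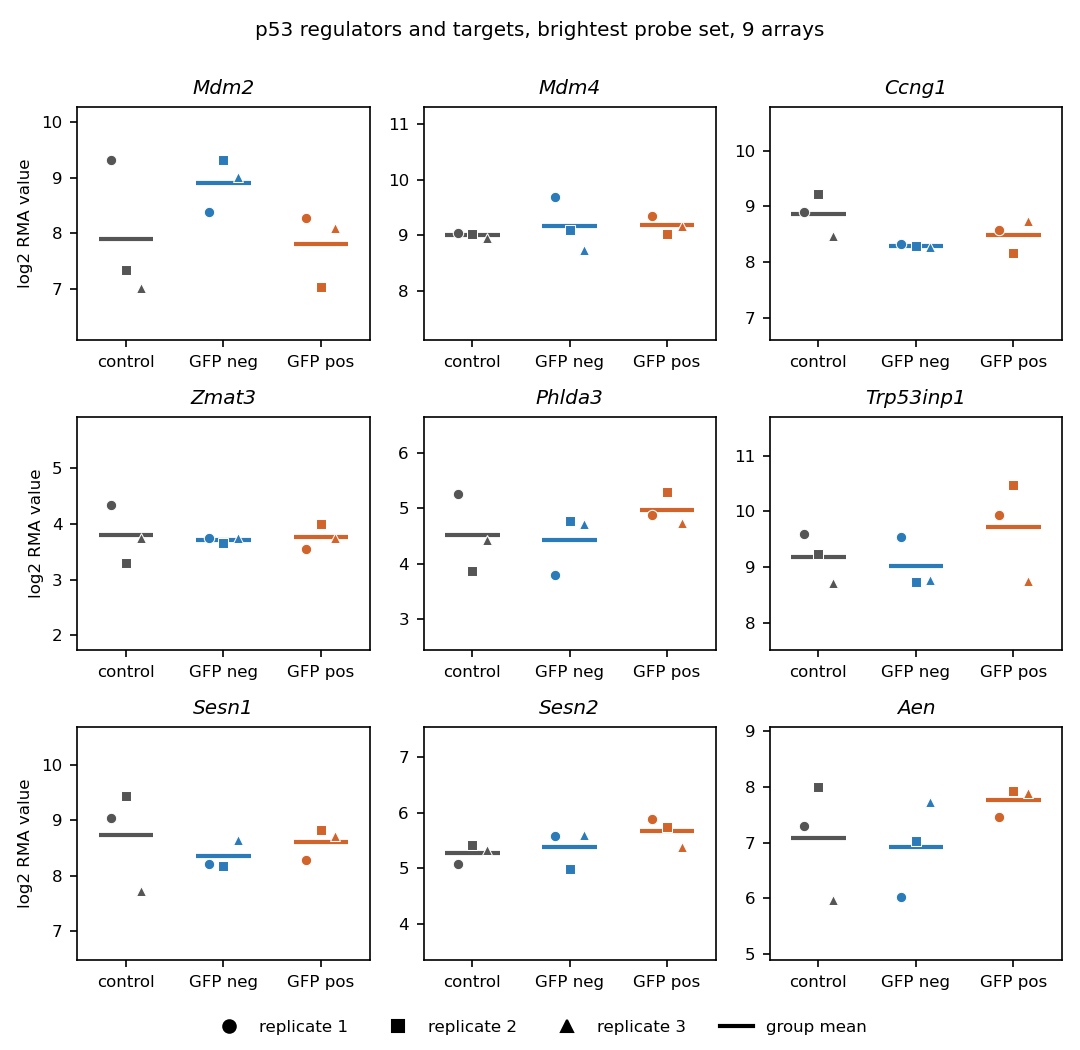
Log2 RMA values (vertical axis, the same span in each panel) of the brightest probe set of the 9 measured genes on the 9 arrays. Symbols give the replicate number, colours the group and bars the group mean of 3 arrays. Most groups overlap. The exceptions are Ccng1 in GFP-negative cells, below all controls, and Mdm2 in GFP-positive cells, below all GFP-negative arrays.

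Mdm2, the ubiquitin ligase that marks p53 for degradation, varied most among the controls. Its brightest probe set read 9.32, 7.33 and 7.02 on control arrays 1 to 3, 8.38, 9.32 and 9.01 on GFP-negative arrays and 8.28, 7.03 and 8.10 on GFP-positive arrays. Control 1 was thus as high as the highest GFP-negative array, while the other controls lay with the lowest GFP-positive array. The order of means was GFP-negative (8.91 ± 0.48, SD, n = 3), control (7.89 ± 1.25) and GFP-positive (7.80 ± 0.67), and the 95% interval of each difference between them included 0. GFP-negative minus control was 1.02 ± 0.61 (SE, limma; interval -0.36 to 2.39; unadjusted p = 0.13, adjusted p = 0.93). GFP-positive minus GFP-negative was -1.10 ± 0.61, with groups that did not overlap (exact permutation p = 0.1, two-sided; limma adjusted p = 1.00). The former difference became 1.73 without control 1 (unadjusted p = 0.00545, adjusted p = 0.854) and 0.58 without control 3, and the latter became -0.72 without GFP-positive 2.

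The other Mdm2 probe sets did not repeat this order. One read 8.63, 7.67 and 4.38 on the controls, 7.26, 6.30 and 6.83 on GFP-negative and 8.10, 4.30 and 6.98 on GFP-positive arrays. Its lowest values fell on control 3 and GFP-positive 2, the arrays with the widest Gapdh gap. The remaining probe set lay between 5.37 and 6.90 on all arrays. Over the 3 probe sets, GFP-negative minus control ran from -0.096 to 1.02. In the mean of the 3 probe sets the difference was 0.37 and GFP-positive minus GFP-negative was -0.48.

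Mdm4, a relative of Mdm2 that blocks p53's activation domain, was steady among the controls by its brightest probe set only. Its brightest probe set read 9.05, 9.02 and 8.95 on the controls, 9.68, 9.09 and 8.73 on GFP-negative and 9.35, 9.02 and 9.17 on GFP-positive arrays. All groups overlapped, and the controls spanned the least. Means of 9.01 ± 0.048, 9.17 ± 0.48 and 9.18 ± 0.17 left differences of 0.16 ± 0.30 for GFP-negative and 0.17 ± 0.30 (SE) for GFP-positive cells against control, with a 95% interval of -0.51 to 0.85 for the latter. The next brightest probe set read 6.88, 7.26 and 7.91 on the controls. Over the 3 tested probe sets, GFP-positive minus control ran from -0.18 to 0.25 and GFP-negative minus control from -0.14 to 0.16. GFP-positive minus GFP-negative ran from -0.12 to 0.39.

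Ccng1 encodes cyclin G1, which recruits a phosphatase to Mdm2 and is among the most direct p53 readouts. Its brightest probe set read 8.89, 9.22 and 8.47 on the controls, 8.32, 8.29 and 8.26 on GFP-negative and 8.57, 8.15 and 8.74 on GFP-positive arrays. The GFP-negative arrays lay within a very narrow band and below every control, whereas GFP-positive arrays overlapped both. GFP-negative minus control was -0.57 ± 0.30 (SE; interval -1.24 to 0.099; limma unadjusted p = 0.0862, adjusted p = 0.919), and GFP-positive minus control was -0.38 ± 0.30. Leaving out control 3 and GFP-positive 2 together gave -0.77 for the former (unadjusted p = 0.0185, adjusted p = 0.544). Without control 2 it was -0.39 and without control 3 -0.77.

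The other 2 Ccng1 probe sets went the other way in GFP-negative cells. The brighter of them read 8.01, 7.45 and 6.40 on the controls, 8.15, 7.40 and 7.89 on GFP-negative and 7.01, 7.36 and 7.71 on GFP-positive arrays. Their GFP-negative minus control differences reached 0.52, and over the mean of all 3 probe sets the difference was 0.059, the opposite sign to that of the brightest. All 3 are annotated to the same sequence record, and the cause of their disagreement was not tested.

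**Figure D2:**
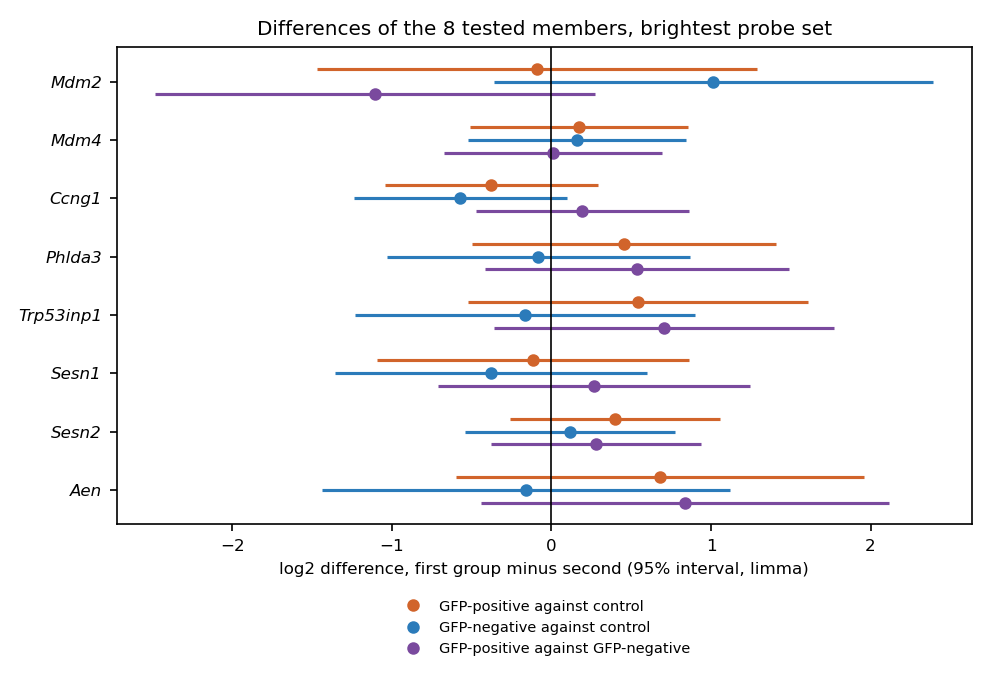
Log2 differences (horizontal axis) of the 8 tested genes by their brightest probe set in the 3 comparisons, with 95% intervals from limma over 3 groups of 3 arrays. Every interval includes 0. The widest belong to Mdm2 and Aen and the narrowest to Mdm4, Ccng1 and Sesn2.

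Among targets that limit growth or survival, Aen, a p53-induced exonuclease that acts in apoptosis, had the highest GFP-positive difference by point estimate. Its brightest probe set read 7.30, 8.00 and 5.96 on the controls, 6.02, 7.02 and 7.73 on GFP-negative and 7.47, 7.93 and 7.89 on GFP-positive arrays. The GFP-positive arrays lay close together at the upper end of both other groups, whose lowest arrays stood at 5.96 and 6.02. GFP-positive minus control was 0.68 ± 0.57 (interval -0.60 to 1.96) and GFP-positive minus GFP-negative was 0.84 ± 0.57 (SE, limma; interval -0.44 to 2.12). Without control 3 and GFP-positive 2 the former was 0.033. The latter was 0.39 without GFP-negative 1, and the mean of the Aen probe sets gave 0.046 and 0.088. The other tested Aen probe sets differed in the opposite direction in GFP-positive cells, by -0.41 and -0.27 against control.

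Phlda3, which restrains AKT signalling by competing for membrane lipids, read 5.25, 3.86 and 4.42 on the controls, 3.80, 4.78 and 4.72 on GFP-negative and 4.88, 5.28 and 4.74 on GFP-positive arrays. Its values lay near the filter level. The groups overlapped, and the differences from control were 0.45 ± 0.42 in GFP-positive and -0.081 ± 0.42 (SE) in GFP-negative cells. The former was 0.82 without control 1 and 0.13 without control 2.

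Zmat3 encodes a zinc finger protein that binds RNA and contributes to tumour suppression. Its only probe set was below the filter level and was not tested. It read 4.35, 3.30 and 3.75 on the controls, 3.75, 3.66 and 3.75 on GFP-negative and 3.55, 3.99 and 3.74 on GFP-positive arrays. The group means of 3.80, 3.72 and 3.76 differed by less than the spread of the controls (SD 0.52).

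Trp53inp1 encodes a nuclear stress protein that promotes p53 activity and autophagy. Its brightest probe set read 9.59, 9.23 and 8.72 on the controls, 9.54, 8.73 and 8.77 on GFP-negative and 9.94, 10.48 and 8.74 on GFP-positive arrays. GFP-positive arrays 1 and 2 were above every other array, and GFP-positive 3 was among the lowest. GFP-positive minus control was 0.54 ± 0.47 and GFP-positive minus GFP-negative 0.71 ± 0.47 (SE, limma; interval -0.36 to 1.77). The former difference was 1.03 without GFP-positive 3 (unadjusted p = 0.0358), 0.16 without GFP-positive 2 and -0.068 without both arrays that stood apart. The latter difference was 0.33 without GFP-positive 2 and 1.19 without GFP-positive 3 (unadjusted p = 0.0192). The second probe set of Trp53inp1 read 7.38, 6.78 and 6.19 on the controls, 7.33, 6.53 and 5.48 on GFP-negative and 7.51, 7.33 and 7.25 on GFP-positive arrays. It differed in the same directions as the brightest in all 3 comparisons, by 0.58, -0.33 and 0.91.

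The sestrins Sesn1 and Sesn2 link p53 to the control of mTORC1 and oxidative stress. The brightest Sesn1 probe set read 9.03, 9.43 and 7.73 on the controls, 8.22, 8.18 and 8.65 on GFP-negative and 8.29, 8.83 and 8.72 on GFP-positive arrays. Control 3 was the lowest of all 9 arrays, below all dnMPL arrays, while controls 1 and 2 were the highest. GFP-negative minus control was -0.38 ± 0.43 (SE). Without control 3 it was -0.88 (limma unadjusted p = 0.0237), as it also was without both arrays that stood apart (unadjusted p = 0.0221, adjusted p = 0.559), and without control 2 it was -0.032. GFP-positive minus control was -0.12 ± 0.43, and -0.72 without both arrays.

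All 4 Sesn1 probe sets had a lower mean in GFP-negative cells than in controls, with differences from -0.70 to -0.0086, none of which passed. In GFP-positive cells the 4 probe sets spread more widely. A probe set at 7.72, 7.36 and 6.95 on the controls read 7.13, 4.51 and 6.63 on GFP-positive arrays, a difference of -1.26 ± 0.68 (SE; unadjusted p = 0.0943), with its lowest value on GFP-positive 2. The other extreme was 0.039.

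Sesn2 was low. Its brightest probe set read 5.08, 5.41 and 5.33 on the controls, 5.58, 4.99 and 5.59 on GFP-negative and 5.89, 5.73 and 5.39 on GFP-positive arrays. The groups overlapped, with GFP-positive minus control at 0.40 ± 0.29 (interval -0.26 to 1.05) and GFP-negative minus control at 0.12 ± 0.29 (SE). The dimmer probe set read 4.22, 4.34 and 4.65 on the controls, 3.89, 4.11 and 3.84 on GFP-negative and 4.52, 5.95 and 4.48 on GFP-positive arrays. Here every GFP-negative array was below every other array, with values around the filter level of 4.03. GFP-positive minus GFP-negative was 1.03 ± 0.41 (SE; limma unadjusted p = 0.0302, adjusted p = 1.00), and the highest value came from GFP-positive 2.

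**Figure D3:**
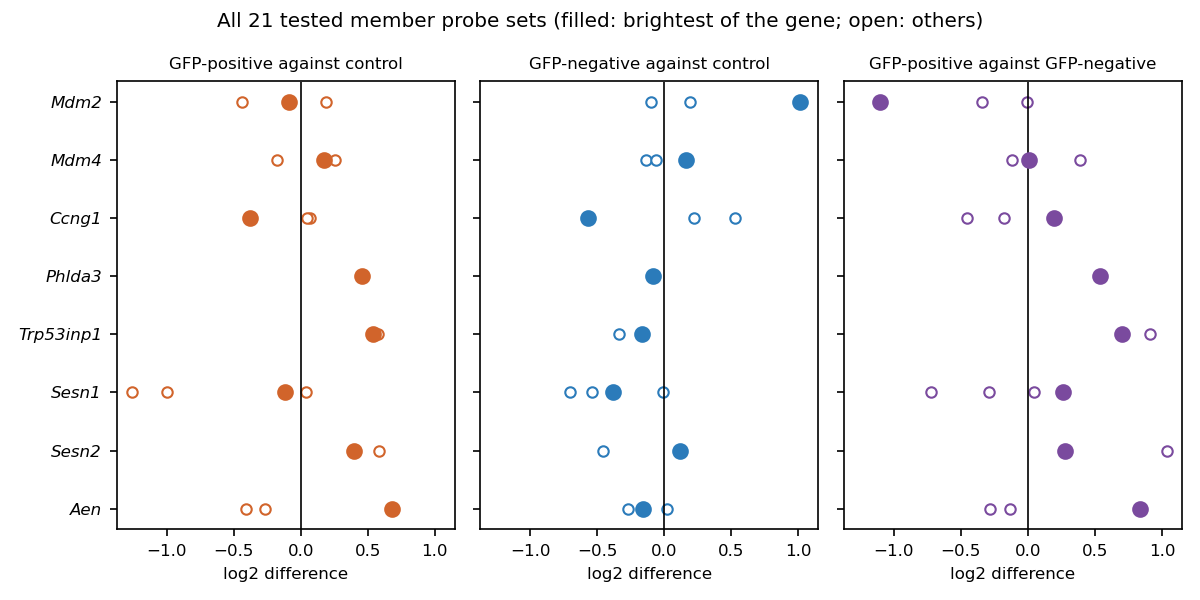
Log2 differences (horizontal axis) of all 21 tested probe sets of the 8 genes, in 1 panel per comparison; filled points are the brightest probe set of a gene and open points the others. Probe sets of Trp53inp1 stay on the same side of 0 in each panel, whereas those of Mdm4, Ccng1 and Aen fall on both sides.

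Described as a set, the 8 members tested by their brightest probe set had a median difference of 0.28 in GFP-positive against control, with 5 positive and 3 negative values. The median over the 12398 genes tested the same way was -0.028. In GFP-negative against control the members' median was -0.12 (3 positive, 5 negative), beside -0.038 for all genes. In GFP-positive against GFP-negative it was 0.27, with 7 positive and 1 negative value, beside 0.015. These comparisons share arrays. Without control 3 and GFP-positive 2 the medians were -0.017, -0.26 and 0.29. Over all 21 probe sets the medians were nearer to 0, at 0.047, -0.096 and 0.010. Probe sets of the same gene agreed little: their correlation over the 9 arrays, which they share, ran from -0.55 for a Sesn1 pair to 0.76 for another Sesn1 pair, and was 0.67 for Trp53inp1. The genes whose brightest probe set followed that of Mdm2 most closely over the 9 arrays, of 12397 compared, were Pcgf2, a Polycomb group gene, B830008H07Rik, Nudt19, the deacetylase Sirt1 and Atp6v0b, with Pearson r from 0.933 to 0.907, given as a description.

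Of 35 other p53 targets listed, 33 matched a named probe set and 29 were tested. None passed over all probe sets in any comparison. At an unadjusted p under 0.05, GFP-positive against control had 1 higher and 1 lower, GFP-negative against control 2 higher and 2 lower, and GFP-positive against GFP-negative 0, where 6.14%, 5.17% and 2.31% of all genes qualified in either direction. The medians of the 29 were -0.10, -0.093 and 0.028. Cdkn1a, the p21 inhibitor of cyclin-dependent kinases and the best known p53 target, read 8.80, 7.15 and 7.03 on the controls, 6.85, 7.43 and 8.45 on GFP-negative and 7.38, 8.07 and 7.40 on GFP-positive arrays. All groups overlapped, and its differences from control were -0.045 ± 0.56 in GFP-positive and -0.080 ± 0.56 (SE) in GFP-negative cells. Control 1 was high for both Cdkn1a and Mdm2.

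Tigar, a phosphatase that lowers glycolytic flux, read 4.64, 4.93 and 5.42 on the controls, 5.76, 6.23 and 6.67 on GFP-negative and 5.89, 5.46 and 6.17 on GFP-positive arrays. Every dnMPL array was above every control. The differences were 1.22 ± 0.35 (unadjusted p = 0.00676, adjusted p = 0.792) in GFP-negative and 0.84 ± 0.35 (SE; limma unadjusted p = 0.0394, adjusted p = 0.828) in GFP-positive cells, and 0.47 and 0.19 by the mean of its probe sets. Ppm1d, the phosphatase that shuts down p53 and its upstream kinases, read 6.26, 6.93 and 5.11 on the controls, 7.34, 7.63 and 7.09 on GFP-negative and 6.78, 6.89 and 7.41 on GFP-positive arrays. Its lowest value was on control 3. The GFP-negative difference of 1.25 ± 0.45 (SE, limma unadjusted p = 0.0205, adjusted p = 0.888) was 0.76 without both arrays that stood apart. By the mean of the Ppm1d probe sets it was 0.70. The GFP-positive difference from control was 0.93 ± 0.45 (SE, limma unadjusted p = 0.069, adjusted p = 0.847). Ddit4, an inhibitor of mTORC1, differed from control by -0.90 ± 0.39 (SE) in GFP-negative (limma unadjusted p = 0.0481) and by as much in GFP-positive cells (unadjusted p = 0.0471). Xpc, which recognises DNA damage and was named for its small p, made the second lower gene in GFP-negative cells (-0.70 ± 0.31, SE, limma adjusted p = 0.913). Its GFP-positive minus GFP-negative difference was 0.60 ± 0.31 (SE, limma unadjusted p = 0.0854).

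Effectors of p53-driven death and arrest gave no call either. The BH3-only gene Bbc3 differed from control by 0.14 in GFP-positive and -0.0041 in GFP-negative cells. Its relative Pmaip1, at 6.49, 4.72 and 3.50 on the controls, differed by 0.26 ± 0.75 and 1.01 ± 0.75 (SE), and the latter was 0.31 without control 3 and 1.80 without control 1. Gadd45a, a stress sensor, differed by 1.15 ± 0.99 in GFP-positive and -0.30 ± 0.99 (SE) in GFP-negative cells, and Btg2, an antiproliferative gene, by -0.12 and -0.40. The repair genes Ddb2 and Rrm2b differed by -0.17 and 0.27 in GFP-positive and by -0.011 and 0.38 in GFP-negative cells. The death receptor gene Fas and Ndn, a growth suppressor of quiescent stem cells, were below the filter level, at group means of 2.30 to 2.70 and 3.86 to 4.14. The death effector Bax is not analysed here.

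**Figure D4:**
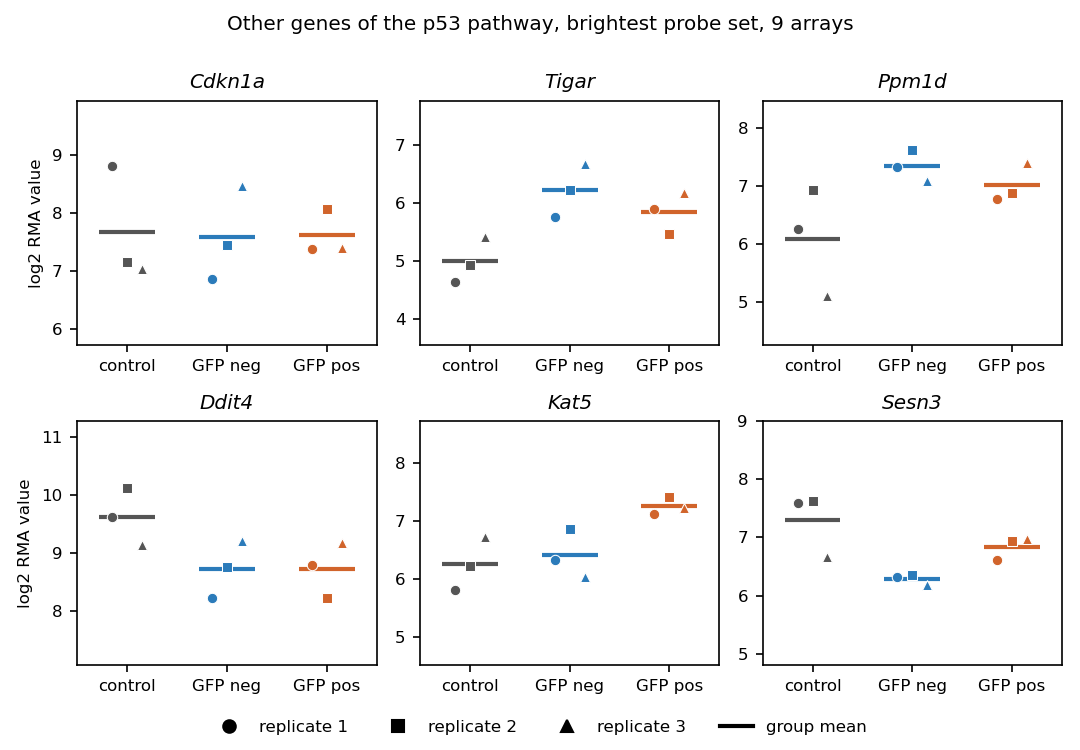
Log2 RMA values (vertical axis, the same span in each panel) of 6 other p53 pathway genes by their brightest probe set on the 9 arrays, with bars for the mean of 3 arrays. Tigar lies above the controls on every dnMPL array, Kat5 is highest on the GFP-positive arrays and Sesn3 lowest on the GFP-negative arrays, while the groups of Cdkn1a overlap. No gene shown passed the adjusted threshold.

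Of 28 kinases and modifiers of p53 listed, 26 were tested and 0 passed. Kat5, the acetyltransferase that modifies p53 and activates the kinase Atm, read 5.81, 6.22 and 6.72 on the controls, 6.33, 6.85 and 6.03 on GFP-negative and 7.12, 7.42 and 7.22 on GFP-positive arrays. The GFP-positive arrays were above all others. The difference was 1.00 ± 0.33 against control (SE, limma unadjusted p = 0.0145, adjusted p = 0.784). Against GFP-negative cells it was 0.85 ± 0.33 (SE, limma unadjusted p = 0.0312, adjusted p = 1.00). Kat5 was the 1 gene of 26 with an unadjusted p under 0.05 in either comparison, where 6.14% and 2.31% of all genes qualified. In GFP-negative against control 0 of the 26 qualified, beside 5.17% of all genes. The smallest p there was that of Sirt1, with a difference of 0.86 ± 0.41 (SE, limma unadjusted p = 0.0607, adjusted p = 0.913). Atm differed from control by -0.82 ± 0.43 in GFP-positive cells, with groups that did not overlap, and by -0.49 ± 0.43 (SE) in GFP-negative cells. The kinase Chek2 differed by 0.43 and 0.076, the deubiquitinase Usp7 by -0.32 and -0.15, and Cdkn2a, which encodes the Mdm2 inhibitor ARF and lay close to the filter level, by 0.038 and -0.11.

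The paralogs of the members, 7 of 11 tested, gave 0 calls. At an unadjusted p under 0.05, 1 of 7 qualified in GFP-positive against control and 1 in GFP-negative against control. Between the dnMPL fractions 0 did. Of all genes 6.14%, 5.17% and 2.31% qualified. Sesn3, the sestrin best known as a FOXO target, read 7.60, 7.63 and 6.67 on the controls, 6.32, 6.35 and 6.17 on GFP-negative and 6.61, 6.94 and 6.97 on GFP-positive arrays. Each GFP-negative array was below all others. GFP-negative minus control was -1.02 ± 0.32 (SE; limma unadjusted p = 0.0113, adjusted p = 0.835), and it was -1.33 without both arrays that stood apart and -0.65 by the mean of its probe sets. Trp53inp2, an autophagy gene, spread from 2.95 to 5.86 over the controls and differed by 1.77 ± 0.78 in GFP-positive (SE; limma unadjusted p = 0.0488, adjusted p = 0.845) and 1.48 ± 0.78 in GFP-negative cells (unadjusted p = 0.0901, adjusted p = 0.922). The former was 1.07 without control 1, 2.52 without control 3 and 2.73 without both arrays that stood apart, and the latter was 0.78 without control 1 and 2.23 without control 3. Ccng2 differed from control by 0.39 ± 0.54 in GFP-positive and -0.53 ± 0.54 (SE) in GFP-negative cells. Of the p53 relatives, Trp73 stood at means of 4.64, 4.86 and 4.65 and Trp63, below the filter level, at 3.94, 3.96 and 3.92 in control, GFP-negative and GFP-positive cells.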

How the data were processed

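Sorted LSK RNA was amplified and labelled with Nugen kits, per the labels' protocols, and hybridised to Affymetrix mouse arrays, 1 per sample. The values used are the log2 values the authors deposited, made with RMA according to the submitters' processing notes. RMA subtracts background, equalises the distributions of the arrays and fits the probes of a set by median polish, which can tie arrays (5 of the 24 member probe sets had ties). Software version and genome build are not given in the sources used here.

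Of 45101 probe sets, 64 array controls were left out, and 34945 name 1 gene, 932 several and 9160 none. Genes were matched to RefSeq by Entrez number (34741 probe sets). limma 3.58.1 (R 4.3.3; lmFit, eBayes) was fitted over all 9 arrays and 27022 probe sets above the 40th percentile, and p-values were adjusted by Benjamini-Hochberg (threshold 0.05). Each gene was represented by its brightest probe set over all arrays, and other probe sets of the members are described beside it. The members and lists were chosen with earlier results of these data known. The text names all members, a fixed set of pathway genes and the list genes with an unadjusted p under 0.05 in any comparison. Tap1, Dglucy, Prkdc, Wrap53 and Phlda2 were also among the smallest p of their lists, but not under 0.05, and are not described. The fit was tested on simulated data. Same-numbered GFP-negative and GFP-positive arrays did not deviate together (r of 0.091, -0.031 and -0.068), and numbers were not taken as pairs. With 3 arrays a group this check cannot show that the pools are unpaired. Alternatives changed the filter, probe set choice, normalization, arrays, weights, threshold and block. Figures used matplotlib 3.10.9 (Python 3.11.15).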

Additional observations from a re-analysis of the deposited data

How the results depend on the processing

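With 3 arrays a group, the 95% intervals of GFP-positive against control ran from -0.26 to 1.05 for Sesn2 and from -1.47 to 1.29 for Mdm2, so smaller changes could not be resolved. In all 18 alternatives the number of probe sets past the threshold was 0 in each comparison (limma), also at an adjusted p under 0.10 and with the replicate number as a block (0, 0 and 0 with the replicate block, which moved no call). Of 408 recomputed member differences 386 kept their direction and 22 changed sign, and no adjusted p was under 0.54. The cause of the sign changes was not tested. When all probe sets of a gene were averaged, Mdm4 differed from control by -0.0050 in GFP-positive and -0.024 in GFP-negative cells, Ccng1 and Sesn2 by 0.059 and -0.17 in GFP-negative cells, and Ccng1, Sesn1 and Cdkn1a by -0.14, -0.18 and -0.12 between the dnMPL fractions. Between these fractions Mdm4 differed by -0.0063 after a further quantile normalization, and Cdkn1a by -0.041 with array weights and -0.19 without control 3 and GFP-positive 2, a setting in which Trp53inp1 differed by -0.068 in GFP-positive cells against control. Leaving out single arrays gave, for GFP-positive against control, -0.52 to 0.63 for Mdm2, -0.62 to 0.23 for Sesn1 and -0.36 to 0.52 for Cdkn1a. For GFP-negative against control it gave -0.096 to 0.38 for Mdm4, -0.41 to 0.29 for Phlda3, -0.43 to 0.040 for Trp53inp1, -0.72 to 0.30 for Aen and -0.52 to 0.49 for Cdkn1a. Between the fractions it gave -0.21 to 0.27 for Mdm4 and -0.33 to 0.47 for Cdkn1a.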
